A study of Mus musculus with 15 samples.

Results

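The 6 genes described here, Ly6a, Ly6c1, Ly6c2, Ly6d, Ly6e and Ly6i, belong to the Ly6 family and lie together on mouse chromosome 15. They were chosen by name, each symbol was matched to 1 of the 38924 Ensembl gene identifiers of the count table, and all 6 passed the filter on low counts that kept 14456 genes. Poly-A RNA was measured by RNA-seq in 15 libraries from naive female C57BL/6 mice aged 6 to 8 weeks, 3 from each of 5 sorted subtypes of mononuclear phagocyte. These were splenic CD8+ dendritic cells (DCs) and lung-draining lymph node (LN) CD103+ DCs, which represent the DC1 lineage, splenic CD4+ DCs and LN CD11b+ DCs, which represent the DC2 lineage, and splenic Ly6C+ CD11b+ monocytes. No animal was treated or genetically altered. Each library came from cells pooled from 5 mice, and different cohorts gave the LN and the spleen. In the LN only DCs with much surface MHC class II were taken, the gate for migratory DCs, so organ, cohort and gate cannot be told apart. P-values measure the spread between these pools.

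The sort used Ly6 antigens. Monocytes were selected for Ly6C, the product of Ly6c1 and Ly6c2, while DCs of LN and spleen were sorted after exclusion of cells that bound antibodies to Gr1 (which recognizes Ly6G and Ly6C) and CD64. The levels of Ly6c1 and Ly6c2 in monocytes are therefore given as a description, with no test against DCs. Exclusion by Gr1 may also have removed DCs that carried Ly6C. Tests of Ly6c1 and Ly6c2 between DC subtypes thus cover only the cells left after it.

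Ly6 proteins are small, cysteine-rich proteins held at the cell surface by a glycosylphosphatidylinositol (GPI) anchor, a lipid attached to the protein in the endoplasmic reticulum. Ly6C is the surface antigen by which classical mouse monocytes are recognized, and Ly6A, also called Sca-1, marks hematopoietic stem cells and is induced by interferon in many leukocytes. Ly6E is an interferon-inducible member that affects the entry of several viruses, and Ly6D marks lymphoid progenitors committed to the B cell lineage.

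In the mm10 coordinates of the deposited annotation, the 6 genes spanned 349629 bases, chr15:74762056-75111684. Their order was Ly6d (ENSMUSG00000034634, 74762056-74763567, minus strand), Ly6e (ENSMUSG00000022587, 74955051-74959905, plus strand), Ly6i (ENSMUSG00000022586, 74979812-74983430, minus strand), Ly6a (ENSMUSG00000075602, 74994878-74997634, minus strand), Ly6c1 (ENSMUSG00000079018, 75045017-75048837, minus strand) and Ly6c2 (ENSMUSG00000022584, 75108160-75111684, minus strand). The span held 13 annotated genes, 11 of them with at least 1 count, and the 6 that passed the filter were exactly these 6. The exons of none of the 6 overlapped an exon of another gene, so no read was counted for a member and an overlapping neighbor.

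Ly6c1 and Ly6c2 are close copies, and their coding sequences are shown because they set how far counts can be told apart. In their GENCODE vM21 transcripts, Ly6c1 (coding part within chr15:75045402-75048511, GRCm38, minus strand) and Ly6c2 (chr15:75108543-75111667, minus strand), the 396 coding bases differed at 9 positions, an identity of 97.73%, with the longest identical run 188 bases. Coding bases 1 to 270 are printed, which hold 7 of these differences, in capitals.
Ly6c1: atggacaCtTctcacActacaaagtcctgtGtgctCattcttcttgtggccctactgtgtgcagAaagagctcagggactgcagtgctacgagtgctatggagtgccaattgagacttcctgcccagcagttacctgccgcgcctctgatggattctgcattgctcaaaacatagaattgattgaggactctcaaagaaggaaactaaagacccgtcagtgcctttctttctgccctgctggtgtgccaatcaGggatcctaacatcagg
Ly6c2: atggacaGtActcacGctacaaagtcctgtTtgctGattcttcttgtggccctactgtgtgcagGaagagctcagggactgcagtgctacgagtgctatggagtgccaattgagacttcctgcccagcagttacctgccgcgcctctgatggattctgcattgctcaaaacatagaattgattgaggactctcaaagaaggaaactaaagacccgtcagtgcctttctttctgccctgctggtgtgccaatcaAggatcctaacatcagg
A read that lies wholly within an identical run maps to both genes and, as the authors counted uniquely mapped reads, was left out of either count. Of all 50-base windows in the annotated transcripts of Ly6c1, 32.8% also occurred in a transcript of another gene, mainly Ly6c2. The share was 14.4% for Ly6c2, 19.0% for Ly6a, 4.76% for Ly6i and 0 for Ly6d and Ly6e. Ly6a and Ly6i were the next closest pair, with 86.42% identity over their coding sequences, while Ly6d and Ly6e had 49.3% to 53.49% identity with each other and with the remaining members. Counts of Ly6c1, Ly6c2, Ly6a and Ly6i are thus uncertain to the extent that reads were lost or exchanged.

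RefSeq promoter sequences (GRCm38.p6) were at hand for 2 of the 6 members, Ly6c1 and Ly6c2, whose levels moved together across the libraries. The 250 bases before the upstream start site of each are shown, at chr15:75048838-75049087 for Ly6c1 and chr15:75111972-75112221 for Ly6c2, minus strand. Capitals mark the match to GAGGAA, the PU box bound by the myeloid factor PU.1, searched on both strands.
Ly6c1: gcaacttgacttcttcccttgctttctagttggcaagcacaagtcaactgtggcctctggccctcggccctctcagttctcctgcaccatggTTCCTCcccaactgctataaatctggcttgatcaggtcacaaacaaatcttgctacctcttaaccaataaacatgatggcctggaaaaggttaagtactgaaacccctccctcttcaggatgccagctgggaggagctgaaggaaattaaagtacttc
Ly6c2: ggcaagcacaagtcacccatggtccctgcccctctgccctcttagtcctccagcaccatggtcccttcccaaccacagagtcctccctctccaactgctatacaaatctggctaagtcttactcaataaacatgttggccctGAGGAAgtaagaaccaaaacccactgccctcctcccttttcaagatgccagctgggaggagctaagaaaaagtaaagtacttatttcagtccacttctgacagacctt
Each window shown held 1 such match (in Ly6c1 on the other strand, so that it reads TTCCTC), 158 bases before the start in Ly6c1 and 108 in Ly6c2. The overlapping window of the downstream start site, not shown, held 1 match in Ly6c1, read as GAGGAA 127 bases before that start. In Ly6c2 it held 2, at 142 and 8 bases before. Of 32851 promoter windows of this length, 23.3% held at least 1. None of these windows of Ly6c1 and Ly6c2 held the core of the interferon-stimulated response element (GAAA repeated after 2 bases), found in 2.98% of windows. None held the gamma-activated sequence TTCNNNGAA, found in 7.02%. These matches are descriptions of letters and not of binding.

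Libraries held 4531243 to 10233914 counts on genes, and a chi-square of the counts of replicates came to 4.96 to 50.7 per gene, where counting error gives about 1. Levels are given as CPM, read counts scaled to library sizes adjusted by edgeR's TMM method, and compared within a gene. Levels between genes are compared as TPM, the authors' values, which are also scaled by gene length. Fold changes are log2 values with standard errors (SE) from an edgeR quasi-likelihood model of all 5 subtypes, adjusted by Benjamini-Hochberg over all 14456 genes and called where the adjusted p was under 0.05. In the test of any difference over the 5 subtypes all 6 genes were called, as were 73.5% of all genes, and for Ly6c1 and Ly6c2 the sort set part of that range. The lineage labels held in the summed CPM of markers, though not for each marker. The 6 DC1 markers (Xcr1, Clec9a, Irf8, Batf3, Cadm1 and Tlr3) summed to 3529 to 5468 in splenic CD8+ DCs and 778 to 1095 in LN CD103+ DCs. Their sums were 140 to 168 in splenic CD4+ DCs and 287 to 445 in LN CD11b+ DCs. The 6 DC2 markers (Irf4, Sirpa, Itgam, Clec4a4, Cd209a and Esam) summed to 1748 to 2825 in splenic CD4+ DCs and 833 to 945 in LN CD11b+ DCs. Their sums were 108 to 266 in splenic CD8+ DCs and 91.6 to 116 in LN CD103+ DCs. Batf3, Tlr3 and Esam overlapped between the LN subtypes. The 6 markers of migratory DCs (Ccr7, Fscn1, Ccl22, Socs2, Cacnb3 and Il4i1) summed to 8507 to 18407 CPM in the LN subtypes and 258 to 699 CPM in the splenic DCs. In monocytes, 6 monocyte markers (Csf1r, Ccr2, Fcgr1, Cd14, Lyz2 and F13a1) summed to 24863 to 26847 CPM. In bulk RNA, fewer cells of a type and less RNA per cell cannot be told apart.

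**Figure D1:**
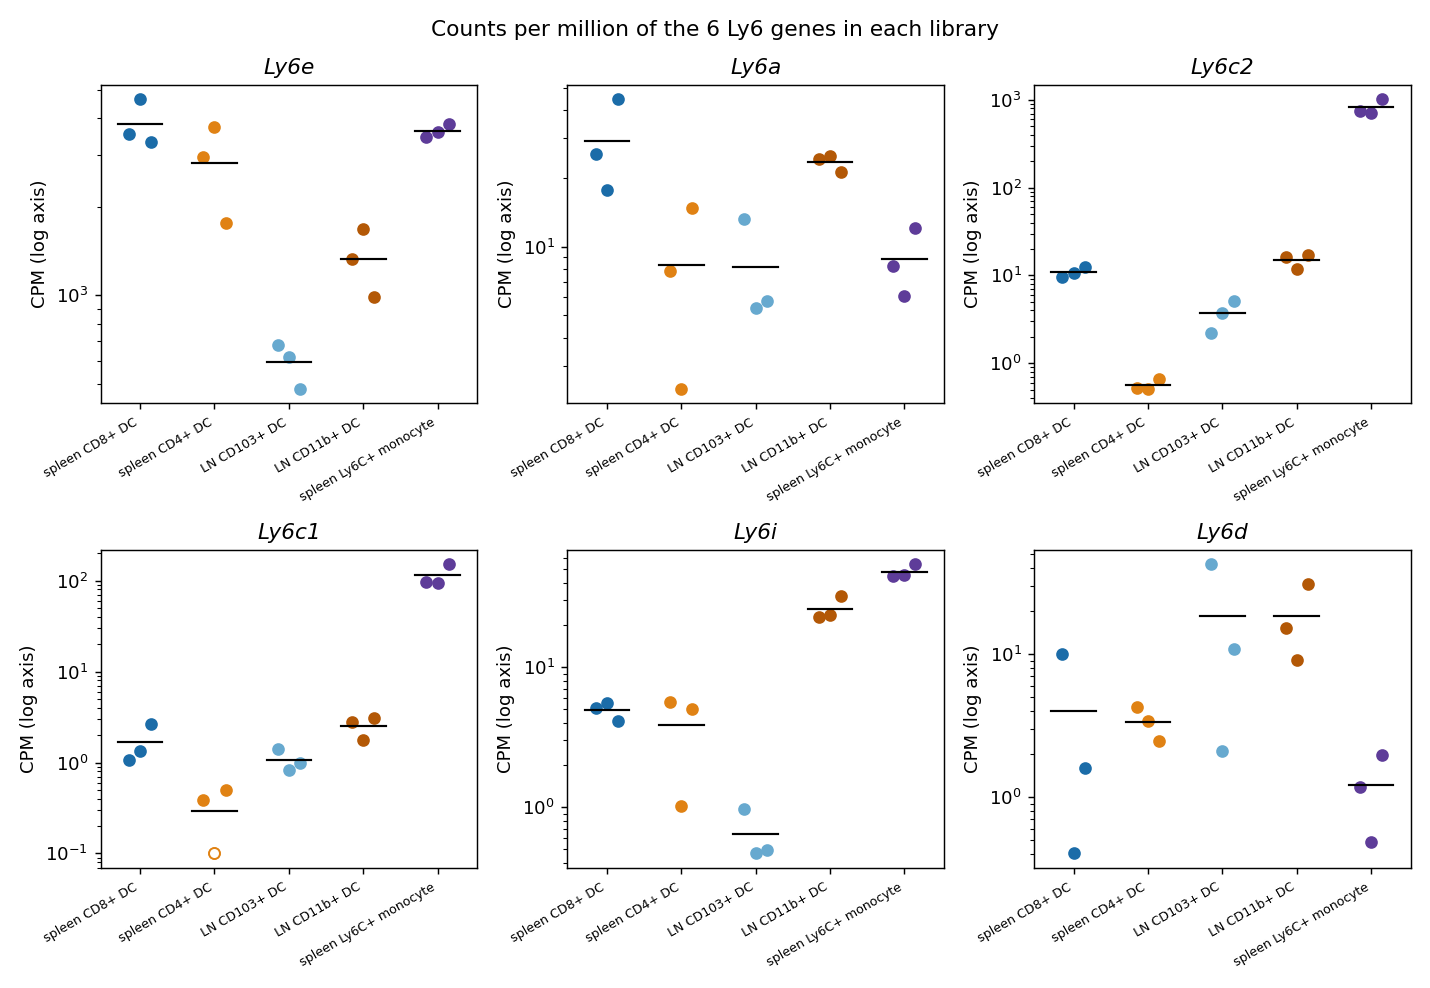
CPM (log axis) of each of the 6 genes in the 15 libraries, by subtype, with 1 point per library and a line at the mean of the 3. The open point is a library with no Ly6c1 count, drawn at the foot of the axis. Ly6c1 and Ly6c2 stand far higher in monocytes than in any DC library, and Ly6e is lowest in LN CD103+ DCs.

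Ly6e was by far the most abundant member. Its mean was 4066 TPM in monocytes, 4004 TPM in splenic CD8+ DCs and 581 TPM in LN CD103+ DCs, its lowest subtype, and in the 4 DC subtypes it made up on average 83.6% to 98.0% of the summed TPM of the 6 genes. In monocytes its share was 56.3% ± 3.91 (SD, n = 3), where Ly6c2 reached 2678 TPM. Ly6e was measured at 3548, 4642 and 3323 CPM in the 3 splenic CD8+ libraries, 2951, 3750 and 1766 in splenic CD4+ DCs, and 3453, 3595 and 3816 in monocytes. The LN libraries held 678, 616 and 482 CPM (CD103+) and 1326, 1681 and 987 CPM (CD11b+). All 9 splenic libraries thus lay above all 6 LN libraries.

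Ly6a, which encodes Sca-1, was measured at 25.7, 17.8 and 44.5 CPM in splenic CD8+ DCs and at 24.3, 25.0 and 21.4 CPM in LN CD11b+ DCs. In splenic CD4+ DCs the libraries held 7.85, 2.38 and 14.8 CPM, in LN CD103+ DCs 13.2, 5.38 and 5.79, and in monocytes 8.25, 6.12 and 12.1. Splenic CD8+ and LN CD11b+ DCs overlapped each other and lay above the remaining 3 subtypes, which also overlapped.

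Ly6c2 was measured at 9.55, 10.8 and 12.4 CPM in splenic CD8+ DCs and at 16.0, 11.7 and 17.2 CPM in LN CD11b+ DCs. LN CD103+ DCs held 2.23, 3.74 and 5.13 CPM, and splenic CD4+ DCs 0.515, 0.511 and 0.665, from 11 counts over the 3 libraries. Monocytes held 752, 706 and 1016 CPM, a mean 55.0 times that of LN CD11b+ DCs, the highest DC subtype. Among DCs the order of the means was LN CD11b+, splenic CD8+, LN CD103+ and splenic CD4+, and the first pair overlapped.

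Ly6c1 followed the same order at lower counts. It was measured at 2.79, 1.76 and 3.09 CPM in LN CD11b+ DCs, 1.07, 1.35 and 2.63 in splenic CD8+ DCs, 1.39, 0.818 and 0.993 in LN CD103+ DCs, and 0.386, 0 and 0.499 in splenic CD4+ DCs, where only 6 counts were made in all. Monocytes held 97.6, 95.4 and 152 CPM. Over the 15 libraries Pearson's r of log2 CPM between Ly6c1 and Ly6c2 was 0.975, a value to which the gap between monocytes and DCs and any exchange of reads contribute.

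Ly6c2 took most of the counts of this pair. Its share of the pooled Ly6c1 and Ly6c2 counts was 87.7% in monocytes (exact 95% binomial interval 87.3% to 88.2%), 86.5% in splenic CD8+ DCs (82.1% to 90.1%), 85.5% in LN CD11b+ DCs (81.4% to 89.0%), 77.5% in LN CD103+ DCs (68.1% to 85.1%) and 64.7% in splenic CD4+ DCs (38.3% to 85.8%). The intervals cover counting error only. The intervals of LN CD103+ and splenic CD4+ DCs lay below that of monocytes, while the 4 DC intervals overlapped, with the splenic CD4+ value resting on 17 counts. By library the share was 61.5%, 82.1% and 83.8% in LN CD103+ DCs and 84.8% to 87.0% in LN CD11b+ DCs. No test was run on the share.

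**Figure D2:**
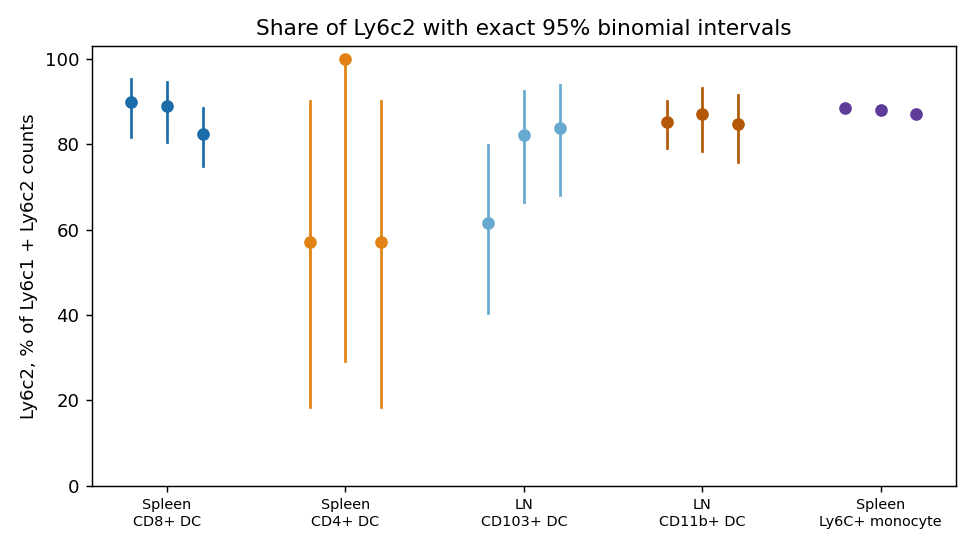
Share of Ly6c2 in the counts of Ly6c1 and Ly6c2 (%), per library, with exact 95% binomial intervals as vertical lines, by subtype. The monocyte libraries sit between 87.0% and 88.5%, and the splenic CD4+ libraries rest on 3 to 7 counts each.

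Ly6i, a close relative of Ly6a, was highest in monocytes, at 44.6, 45.5 and 54.4 CPM, and next in LN CD11b+ DCs, at 22.7, 23.6 and 32.5 CPM. It was measured at 5.13, 5.53 and 4.12 CPM in splenic CD8+ DCs and 5.67, 1.02 and 4.99 in splenic CD4+ DCs, which overlapped. LN CD103+ DCs held 0.976, 0.468 and 0.497 CPM, from 14 counts in all. No LN CD103+ library reached the lowest library of another subtype.

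Ly6d varied widely within LN CD103+ and splenic CD8+ DCs. It was measured at 42.8, 2.10 and 10.9 CPM in LN CD103+ DCs, a 20.3-fold range, and at 10.03, 0.404 and 1.60 CPM in splenic CD8+ DCs, a 24.8-fold range. LN CD11b+ DCs held 15.4, 9.08 and 30.9 CPM, splenic CD4+ DCs 4.25, 3.41 and 2.49, and monocytes 1.18, 0.485 and 1.97. The LN subtypes overlapped each other, as did the splenic DC subtypes.

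The first comparison asked how DC1 and DC2 of the spleen differ. Ly6c2 was higher in splenic CD8+ than in CD4+ DCs by 4.24 on the log2 scale (SE 0.36, adjusted p = 1.06e-07), Ly6c1 by 2.42 (SE 0.60, adjusted p = 0.00586) and Ly6a by 1.81 (SE 0.48, adjusted p = 0.00905), each with no overlap between the libraries, as for 36.8% of all genes. In all 3 of the 6 members were called, each higher, where 27.4% of all genes tested were called and 13.1% were called higher. Ly6e (0.44, interval -0.10 to 0.99), Ly6i (0.31, -0.51 to 1.14) and Ly6d (0.24, -1.68 to 2.17) did not pass. The call for Ly6a was lost without splenic CD8+ replicate 3 (log2 1.38, adjusted p = 0.063), and the call for Ly6c1 was lost in a fit of these 2 subtypes alone (adjusted p = 0.102).

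In the LN the order of the lineages was turned for Ly6a and Ly6c2, while Ly6e and Ly6i, also called there, had not passed in the spleen. Ly6i was lower in CD103+ than in CD11b+ DCs by a log2 fold change of -5.30 (SE 0.48, adjusted p = 5.24e-07), Ly6c2 by -2.02 (SE 0.27, adjusted p = 3.89e-05), Ly6e by -1.17 (SE 0.26, adjusted p = 0.00512) and Ly6a by -1.54 (SE 0.48, adjusted p = 0.0428). These 4 members were called lower, where 12.9% of all genes were called and 7.73% were called lower. Ly6c1 had a value of -1.24, with no overlap between the libraries (31.8% of all genes), but did not pass (adjusted p = 0.0858), and it passed without the filter on low counts (adjusted p = 0.0433) and with the replicate number as a block (adjusted p = 0.0365). The call for Ly6a was close to the threshold. It was lost in the limma fit of log2(TPM + 1) (adjusted p = 0.0554) and when any of 8 libraries was left out (LN CD103+ replicate 2 or 3, any LN CD11b+ replicate, or replicate 1 of a splenic subtype), with log2 values of -1.30 to -1.60 and adjusted p of 0.0502 to 0.173. Ly6d was at 0.02 (interval -1.68 to 1.73).

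Between organs, the DC1 subtypes differed in 5 of 6 members, where 45.6% of all genes were called, so a count of this size stands near a high background. In LN CD103+ against splenic CD8+ DCs, Ly6e was lower by -2.70 on the log2 scale (SE 0.28, adjusted p = 2.4e-07), Ly6i by -2.90 (SE 0.50, adjusted p = 0.000105), Ly6a by -1.85 (SE 0.48, adjusted p = 0.00408) and Ly6c2 by -1.57 (SE 0.27, adjusted p = 9.85e-05). Ly6c1 was at -0.67 (interval -1.65 to 0.31). Ly6d was higher by 2.20 (SE 0.87, adjusted p = 0.0472), but its libraries overlapped.

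Among the DC2 subtypes all 6 members passed, where 33.1% of all genes were called. Relative to splenic CD4+ DCs, LN CD11b+ DCs were higher in Ly6c2 by 4.69 on the log2 scale (SE 0.36, adjusted p = 1.9e-08), in Ly6c1 by 2.98 (SE 0.58, adjusted p = 0.000596), in Ly6i by 2.72 (SE 0.38, adjusted p = 2.21e-05) and in Ly6a by 1.498 (SE 0.48, adjusted p = 0.0228). Ly6d was higher by 2.42 (SE 0.90, adjusted p = 0.0462), and Ly6e was lower by -1.08 (SE 0.26, adjusted p = 0.00343). The call for Ly6a was lost without splenic CD4+ replicate 1 (adjusted p = 0.066) or 2 (0.0815) and without LN CD11b+ replicate 1 (0.0526) or 2 (0.0539).

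The calls for Ly6d between organs lay close to the threshold. With robust moderation of the dispersions its adjusted p was 0.0726 in DC1 and 0.0723 in DC2, and DESeq2 gave 0.0753 and 0.066. Without LN CD103+ replicate 1 the difference in DC1 was 0.66 (adjusted p = 0.567), against 2.20 with it. The difference in DC2 was not called without any 1 of the 3 splenic CD4+ or 3 monocyte libraries, LN CD11b+ replicate 1 or 3 or LN CD103+ replicate 3, with values of 1.84 to 2.62 and adjusted p of 0.0504 to 0.16. The difference in DC1 also lost its call without splenic CD8+ replicate 2 or 3, splenic CD4+ replicate 1 or 2, LN CD11b+ replicate 1 or any monocyte library (1.66 to 2.20, adjusted p of 0.0506 to 0.148). Both calls thus depended on the setting and on single libraries.

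The test of whether the organ difference itself differed between the lineages, the interaction, called 5 of 6 members, where 11.2% of all genes were called and 6.03% were called in the negative direction. The difference LN CD103+ minus splenic CD8+ was smaller than the difference LN CD11b+ minus splenic CD4+ by -6.26 for Ly6c2 (SE 0.45, adjusted p = 1.02e-07), -5.62 for Ly6i (SE 0.62, adjusted p = 1.24e-05), -3.65 for Ly6c1 (SE 0.76, adjusted p = 0.00382), -3.35 for Ly6a (SE 0.68, adjusted p = 0.0034) and -1.61 for Ly6e (SE 0.37, adjusted p = 0.0073). Ly6a, Ly6c2 and Ly6i were called lower in LN in DC1 and higher in LN in DC2. Ly6e was called lower in LN in both lineages, with the larger drop in DC1. Ly6d had an interaction of -0.22 (interval -2.79 to 2.35). These 5 calls were also made with each of the 15 libraries left out in turn. Counting Ly6c1 and Ly6c2 as 1 feature gave an interaction of -5.72 (SE 0.43, adjusted p = 1.48e-07), and counting Ly6a, Ly6c1, Ly6c2 and Ly6i as 1 feature gave -4.15 (SE 0.54, adjusted p = 5.65e-05).

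**Figure D3:**
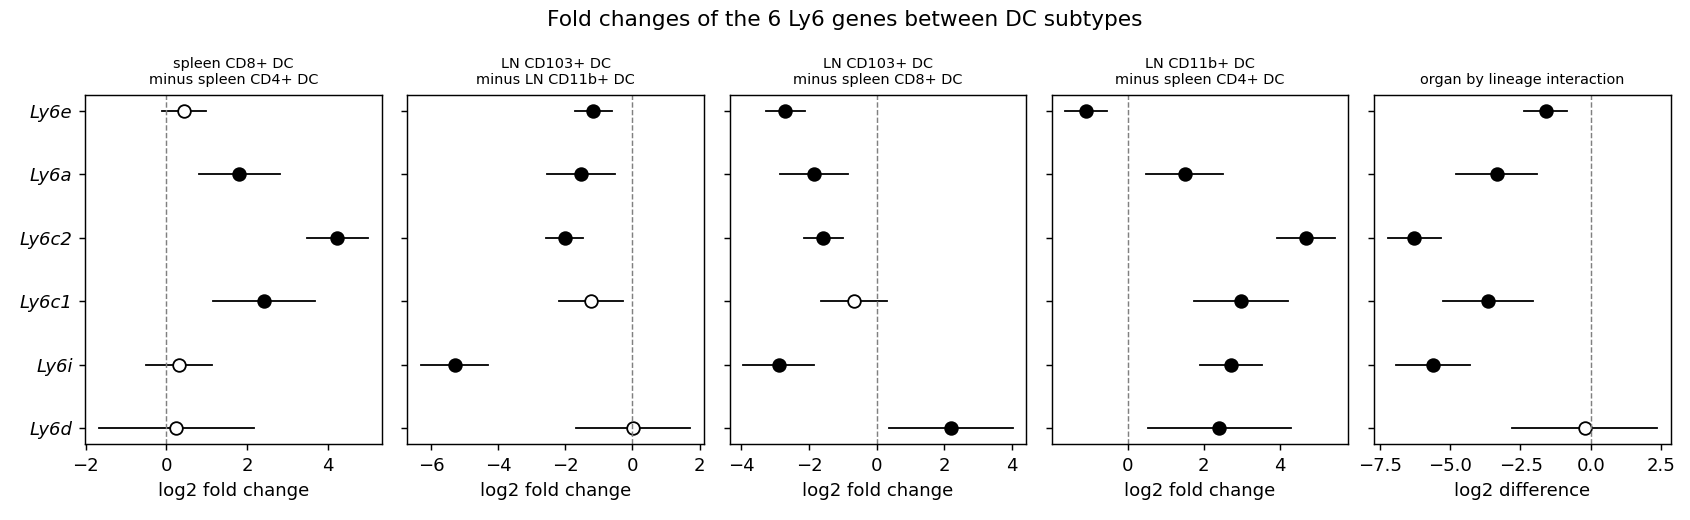
Log2 fold changes (horizontal axis, each panel with its own range) of the 6 genes in 4 comparisons of DC subtypes and in the organ by lineage interaction, with 95% intervals as lines. Filled points passed the adjusted p threshold of 0.05 and open points did not. Ly6a, Ly6c2 and Ly6i lie left of 0 in DC1 and right of 0 in DC2 for LN against spleen.

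Across the diagonal, splenic CD8+ and LN CD11b+ DCs, which differ in organ and in lineage, were called different in 2 of 6 members, where 39.9% of all genes were called. Ly6e was higher in splenic CD8+ DCs by 1.53 (SE 0.26, adjusted p = 0.00014) and Ly6i lower by -2.41 (SE 0.37, adjusted p = 4.14e-05). Ly6a differed by 0.31 (interval -0.65 to 1.27), Ly6c1 by -0.57 (-1.44 to 0.31) and Ly6c2 by -0.45 (-0.96 to 0.05), so differences within these intervals cannot be told from none. Ly6d had a value of -2.17 (interval -4.01 to -0.34) with overlapping libraries and did not pass (adjusted p = 0.056). It passed without the filter (adjusted p = 5.63e-07), with the replicate number as a block (adjusted p = 0.00348), with these subtypes alone (adjusted p = 0.0263) and in the limma fits (adjusted p = 0.0338 and 0.038). It also passed without splenic CD8+ replicate 1, LN CD103+ replicate 1 or 2, or LN CD11b+ replicate 2 (-2.17 to -4.13, adjusted p of 0.00391 to 0.0484). On the other diagonal, splenic CD4+ against LN CD103+ DCs, 5 of 6 were called, where 47% of all genes were called. Ly6c2 was lower by -2.67 (SE 0.41, adjusted p = 2.7e-05), Ly6e higher by 2.25 (SE 0.27, adjusted p = 1.67e-06) and Ly6i higher by 2.59 (SE 0.51, adjusted p = 0.000413). Ly6c1 (-1.75, adjusted p = 0.037) rested on 6 and 23 counts and lost its call without splenic CD4+ or LN CD103+ replicate 1, splenic CD4+ replicate 2 or LN CD103+ replicate 3 (-1.25 to -2.001, adjusted p of 0.0576 to 0.127). Ly6d (-2.44, adjusted p = 0.0323) lost its call with robust moderation (adjusted p = 0.0525) and in DESeq2 (adjusted p = 0.0501), without any 1 splenic CD4+ library (adjusted p of 0.0624 to 0.0833), and without LN CD103+ replicate 1 (-0.90, adjusted p = 0.43).

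In monocytes the 4 members tested had different orders relative to DCs. By the deposited column names, only monocyte libraries were split by run. Per the study's methods, monocytes were enriched with CD11b beads and DCs with CD11c beads. Cell type, run and enrichment cannot be told apart in these comparisons. Ly6i was higher than in every DC subtype, by 6.19 on the log2 scale against LN CD103+ DCs (SE 0.48, adjusted p = 3.13e-09), 3.60 against splenic CD4+ DCs (SE 0.39, adjusted p = 5.44e-07), 3.29 against splenic CD8+ DCs (SE 0.38, adjusted p = 9.9e-07) and 0.88 against LN CD11b+ DCs (SE 0.34, adjusted p = 0.0387). The last call was lost in the limma fits, at 0.99 and 1.00 with adjusted p of 0.0867 and 0.14. It was also lost without any 1 of the 3 monocyte libraries or LN CD11b+ replicate 1 or 2, at 0.79 to 0.93 with adjusted p of 0.0662 to 0.125. Ly6e was higher than in LN CD103+ DCs by 2.61 (SE 0.27, adjusted p = 1.96e-07) and than in LN CD11b+ DCs by 1.44 (SE 0.26, adjusted p = 0.00018). Against splenic DCs Ly6e was at -0.08 (interval -0.63 to 0.46) for CD8+ and 0.36 (-0.18 to 0.90) for CD4+. Ly6a was lower than in splenic CD8+ DCs by -1.74 (SE 0.48, adjusted p = 0.00671) and than in LN CD11b+ DCs by -1.42 (SE 0.48, adjusted p = 0.0202), a call lost in the limma fits (-1.33 and -1.36, adjusted p = 0.0593 and 0.0702) and without monocyte replicate 1 (adjusted p = 0.0581) or 2 (adjusted p = 0.0902). Ly6d was lower than in the LN subtypes, by -3.97 for CD103+ (SE 1.01, adjusted p = 0.0027) and -3.94 for CD11b+ (SE 1.01, adjusted p = 0.00338). Of all genes tested, 42.1% were called against splenic CD8+ DCs, 48% against splenic CD4+ DCs, 53.2% against LN CD103+ DCs and 47.8% against LN CD11b+ DCs, and the counts of members called were 2, 1, 3 and 4 of 4.

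Ly6d varied with some genes of B cells. Among 10240 genes that averaged 10 CPM or more in some subtype, those whose log2 CPM followed that of Ly6d most closely over the 15 libraries included Ebf1 (Pearson's r = 0.904, Spearman's rho = 0.921), a transcription factor of B cell commitment, and Cd79a (r = 0.873, rho = 0.846), a subunit of the B cell receptor. The 5 B cell markers Cd79a, Cd79b, Ms4a1, Pax5 and Ebf1 summed to 188 CPM in LN CD103+ replicate 1, the library with the highest Ly6d, and to 14.97 and 25.3 in its other replicates. The sums were 48.0 to 78.2 in LN CD11b+ DCs, 70.8 to 88.7 in splenic CD4+ DCs, 29.6 to 41.4 in splenic CD8+ DCs and 24.2 to 29.7 in monocytes. Pax5 had no count in the splenic DC subtypes. Cd79b and Ms4a1 did not follow Ly6d throughout. Cd79b was at 53.4 to 70.8 CPM in splenic CD4+ DCs and at 2.81 and 3.64 CPM in LN CD103+ replicates 2 and 3. Ms4a1 was at 25.9 CPM in splenic CD8+ replicate 2, the library with the lowest Ly6d. By Pearson's r over the 5 subtype means, Ebf1 ranked only 28 and Cd79a 165. B220+ cells were excluded from the sort with an antibody to B220, and the part of B cell RNA in the Ly6d values was not tested.

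**Figure D4:**
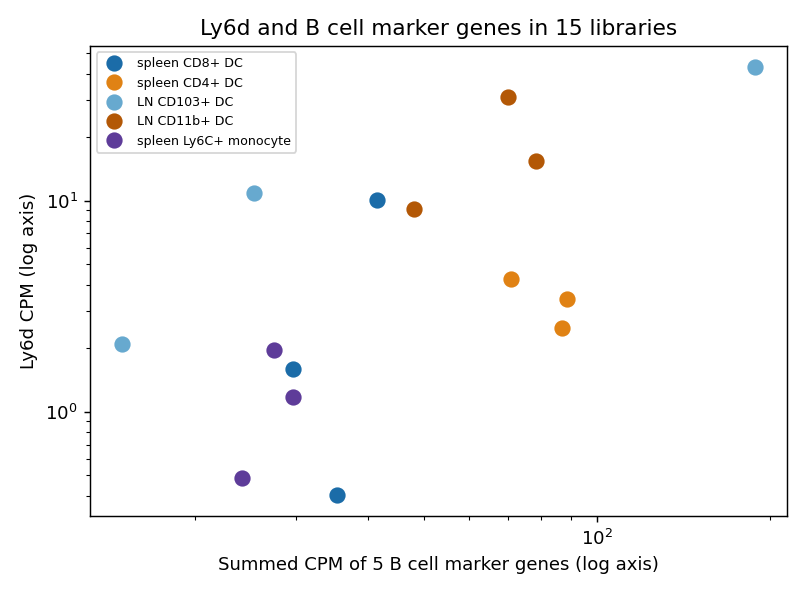
Ly6d CPM against the summed CPM of 5 B cell marker genes, both on log axes, with 1 point for each of the 15 libraries, colored by subtype. LN CD103+ replicate 1 has the highest value on both axes, at 42.8 CPM of Ly6d and 188 CPM of the markers.

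The genes most like the other members were named by the same rule, with Pearson's r. For Ly6i they were Lyz1 (r = 0.943), a lysozyme, Pld1 (r = 0.929), a phospholipase, and Clec10a (r = 0.927), a lectin of DC2 and macrophages. For Ly6c1 they were Vps37b (r = 0.987), Mocs1 (r = 0.983) and Acaa2 (r = 0.980), and for Ly6c2 Socs6 (r = 0.969), Dbi (r = 0.962) and Vps37b (r = 0.962), all higher in monocytes than in DCs. Ly6e was followed by Slc25a5 (r = 0.975), a mitochondrial ADP/ATP carrier, and Fuca2 (r = 0.972), and Ly6a by Rpl35 (r = 0.885), a ribosomal protein, and Tmem106c (r = 0.850). The mean of Rpl35 was 133 CPM in splenic CD8+ DCs and 123 in LN CD11b+ DCs, against 80.9 in splenic CD4+ and 78.3 in LN CD103+ DCs. Libraries share depth and subtype, so these values describe likeness over 15 points, of which 3 come from each subtype.

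Markers of other cells moved with some members. The 6 monocyte markers summed to 1453 to 2499 CPM in LN CD11b+ DCs and 76.2 to 153 CPM in LN CD103+ DCs, the order of Ly6c2, Ly6c1 and Ly6i in the LN. In the spleen the order of the sum was the reverse of that of Ly6c2, with 760 to 984 CPM in CD4+ DCs and 254 to 299 CPM in CD8+ DCs. Csf1r, Fcgr1, Cd14 and Lyz2 had the order of the sum there. Ccr2 had the order of Ly6c2, at 48.7 to 63.2 CPM in CD8+ and 13.6 to 19.8 CPM in CD4+ DCs. F13a1 was at 0.333 CPM or less in both. The 7 plasmacytoid DC markers summed to 138 to 228 CPM in splenic CD8+ DCs and 93.6 to 118 CPM in splenic CD4+ DCs. Of these, Siglech, a receptor of plasmacytoid DCs, which carry Ly6C, was measured at 35.5, 13.5 and 3.89 CPM in splenic CD8+ replicates 1, 2 and 3. Ly6c2 was at 9.55, 10.8 and 12.4 CPM in the same libraries. Siglech was at 0.333 to 5.92 CPM in splenic CD4+ DCs and had no count in monocytes. Ccr9 and Pacsin1 were higher in splenic CD8+ than in CD4+ DCs with no overlap, Tcf4 and Tlr9 overlapped, and Klk1 and Cox6a2 were at 0.644 CPM or less. The part of monocyte or plasmacytoid DC RNA in these differences was not tested. The 6 T cell markers (Cd3d, Cd3e, Cd3g, Cd5, Lat and Trbc2) summed to 41.5 to 63.4 CPM in LN CD11b+ DCs and 55.8 to 99.5 CPM in LN CD103+ DCs. Their sums were 12.8 to 19.1 CPM in splenic CD4+ DCs and 3.50 to 12.1 CPM in splenic CD8+ DCs. Among them, Cd5 was highest in splenic CD4+ DCs, at 12.1 to 13.1 CPM. The part of T cell RNA in the differences between LN and spleen was not tested. The 6 neutrophil markers (Camp, Ltf, Ly6g, Mmp8, Ngp and Retnlg) summed to 223 to 346 CPM in monocytes and to 1.49 CPM or less in every DC library. Of these, Ly6g, a further Ly6 gene of chromosome 15 and a target of the Gr1 antibody, had 4 counts in monocytes and none in any DC library. The part of neutrophil RNA in the monocyte values was not tested.

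Of 29 other genes of the Ly6 and uPAR family in the count table, 14 had at least 1 count and 3 passed the filter. Plaur, the urokinase receptor, was at 415 ± 21.5 CPM in monocytes (SD, n = 3), 15.4 ± 3.99 in splenic CD4+ DCs and 1.19 ± 0.560 in splenic CD8+ DCs. It was lower in splenic CD8+ than CD4+ DCs by -3.69 on the log2 scale (SE 0.84, adjusted p = 0.00299), opposite to Ly6a, Ly6c1 and Ly6c2 in that comparison. Lynx1, which modulates nicotinic receptors, was at 3.07 CPM in monocytes and below 1 CPM on average in each DC subtype, and Ly6g5b, at 0.0971 to 1.16 CPM, was not called between DC subtypes of 1 organ or 1 lineage.

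Of 27 genes tested that make, attach or remodel GPI anchors, edgeR called 3 between splenic CD8+ and CD4+ DCs (1 higher, 2 lower), 4 between organs in DC1 (2 higher, 2 lower) and 5 in DC2 (2 higher, 3 lower), where 27.4%, 45.6% and 33.1% of all genes were called. Between the LN subtypes edgeR called 0 (6 at an unadjusted p under 0.05, and 1 called by DESeq2), and in the interaction 0 (2 at an unadjusted p under 0.05, and 0 called by DESeq2), where 12.9% and 11.2% of all genes were called. Pgap2, which remodels the lipid of the anchor, was higher in LN, by 2.74 in DC1 (SE 0.23, adjusted p = 1.85e-08) and 2.92 in DC2 (SE 0.23, adjusted p = 2.88e-08), at 382 and 342 CPM against 57.2 and 45.1. Pigq and Pigk, the other most abundant genes of the list, were not called in these comparisons.

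Of 32 interferon-stimulated genes tested, 21 were lower and 3 higher in splenic CD8+ than in CD4+ DCs (median log2 -1.26, against 0 over all genes), where Ly6a, Ly6c1 and Ly6c2 were higher. In LN CD103+ against splenic CD8+ DCs, 19 were higher and 3 lower (median 1.58), where Ly6a, Ly6c2, Ly6e and Ly6i were lower. Between the LN subtypes 1 was higher and 5 were lower (median 0.08), and in LN CD11b+ against splenic CD4+ DCs 6 were higher and 5 lower (median 0.06). In the interaction 18 were higher and 2 lower (median 1.29), and the 5 members called were all in the other direction. Of all genes, 27.4%, 45.6%, 12.9%, 33.1% and 11.2% were called in these comparisons, in this order. In monocytes 27 were higher and 0 lower than in splenic CD8+ DCs, and 21 and 0 than in CD4+ DCs. Against LN CD103+ DCs the numbers were 22 and 5, and against LN CD11b+ DCs 19 and 3. The shares of all genes called in these monocyte comparisons were 42.1%, 48%, 53.2% and 47.8%, in this order. Ly6i was called higher in each, while Ly6a was called lower against splenic CD8+ and LN CD11b+ DCs. A link to interferon was not tested. Irf7, a transcription factor of the interferon response, was lower in LN CD103+ than in LN CD11b+ DCs by -1.38 (SE 0.24, adjusted p = 0.000555), as Ly6e was. Stat2, whose product transmits the type I interferon signal, was lower in splenic CD8+ than in CD4+ DCs by -0.86 (SE 0.23, adjusted p = 0.00821).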

How the data were processed

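Cells sorted by flow cytometry gave poly-A RNA, amplified with the SMARTer Ultra Low kit and sequenced on an Ion Torrent instrument. Per the labels and the study's methods, the authors aligned reads to mm10 with STAR 2.4.0j and deposited counts of uniquely mapped reads per Ensembl gene, made without regard to strand with featureCounts of Subread 1.5.2, and the TPM values they derived from these counts. Unstranded reads from overlapping genes cannot be separated. Here the deposited counts were tested with edgeR 4.0.16 in R 4.3.3 (quasi-likelihood, TMM) on genes above 1 CPM in at least 3 libraries, with 1 mean per subtype. The deposited TPM values were used for levels between genes and, as log2(TPM + 1) and log2(TPM + 0.1), in limma 3.58.1. Depth was 4531243 to 10233914 counts per library, and with 3 libraries a group the smallest two-sided exact permutation p for 1 gene is 0.1, so tests rest on the model across genes.

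A robust moderation of the dispersions was run first. The default moderation was then made the main fit, because the written design names the functions with no such option. Both results had been seen by then, the change put Ly6d past the threshold in 3 comparisons, and the robust values are given beside those calls. The 6 genes and all lists were chosen with earlier results of these data known. Genes named were the 6, relatives past the filter, the 3 most correlated genes of each (mean of at least 10 CPM in a subtype) and the 3 most abundant of the 2 pathway lists. Some genes that these rules select are not reported here. Alternatives were DESeq2 1.42.0, other scalings and filters, the replicate block, each library left out and summed counts of close copies. Scripts were tested on simulated counts.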

Additional observations from a re-analysis of the deposited data

Results flagged for a closer look

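For 5 genes the difference between LN and spleen was itself different between the DC1 and DC2 lineages, by the interaction test of the edgeR model. The interaction, (LN CD103+ minus splenic CD8+) minus (LN CD11b+ minus splenic CD4+) on the log2 scale, was -3.35 for Ly6a, -3.65 for Ly6c1, -6.26 for Ly6c2, -1.61 for Ly6e and -5.62 for Ly6i. Organ, cohort and gate cannot be told apart in this difference.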

How the results depend on the processing

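Of the fold changes recomputed under the alternatives, 1367 kept direction and side of the threshold, 70 lost and 18 gained a call and 37 changed sign. Robust moderation and library sizes over the tested genes were chosen after seeing the data. With the replicate number as a block, the number of members called stayed within 1.5 times in each comparison. Same-numbered libraries had correlated deviations above 0.1 in 14 of 30 pairs (-0.0353 to 0.3751). Of 15 libraries, 13 were closest to their own number. Pairs with a monocyte library lay between -0.0353 and 0.0399. The DC subtypes of the same organ gave 0.1616, 0.3387 and 0.3751 in the spleen and 0.2216, 0.1787 and 0.2593 in the LN. Across organs, splenic CD4+ with LN CD11b+ DCs gave 0.1971, 0.2428 and 0.2655, and splenic CD8+ with LN CD103+ DCs 0.0374, 0.086 and 0.0689. Different cohorts gave the LN and the spleen, and what same-numbered libraries shared was not tested. These values are a hint of pairing by number among DCs from the data and not from the design, so pairing was not established. The main fit held no replicate block.

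The members called in monocytes against splenic CD4+ DCs were 2 without the filter, and against LN CD11b+ DCs 2 in either limma fit. With single libraries left out the numbers were 2 to 4 for monocytes against LN CD11b+ DCs (2 without monocyte replicate 1 or 2) and 3 to 5 for splenic CD4+ against LN CD103+ DCs (3 without splenic CD4+ replicate 1 or 2 or LN CD103+ replicate 1).

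No called value changed sign except that of Ly6i where 4 genes were summed. For Ly6d, splenic CD8+ minus CD4+ was -0.63 and -0.84 in limma with a pseudocount of 1 and 0.1 and -0.31 with the replicate block, and LN CD103+ minus CD11b+ was -0.74, -0.79 and -0.61 in the same fits and -0.0013 with these subtypes alone. The Ly6d interaction was 0.047 in limma with 0.1. Ly6e in monocytes minus splenic CD8+ DCs was 0.033 in either limma fit. Ly6a in splenic CD4+ minus LN CD103+ DCs was -0.030 and -0.053 in limma and -0.10 with the block. As the sum of Ly6a, Ly6c1, Ly6c2 and Ly6i, splenic CD4+ minus LN CD103+ was -0.043 (adjusted p = 0.942) and was not called. Singly, Ly6c1 and Ly6c2 were called lower and Ly6i higher there. Splenic CD8+ minus LN CD11b+ was -0.52 (adjusted p = 0.26) and was not called, where singly Ly6i was called lower and Ly6a had a positive value. These sums mix genes of opposite direction and so do not test the single genes. The cause of the other changes was not tested.

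With single libraries left out, values that changed sign ranged for Ly6d from -1.71 to 0.72 (splenic CD8+ minus CD4+), -1.52 to 0.60 (LN CD103+ minus CD11b+), -2.40 to 0.19 (monocytes minus splenic CD8+) and -1.76 to 1.73 (interaction). For Ly6i the range was -0.12 to 0.70 (splenic CD8+ minus CD4+), and for Ly6e -0.18 to 0.064 (monocytes minus splenic CD8+). For Ly6a it was -0.36 to 0.74 (monocytes minus splenic CD4+), -0.20 to 0.66 (monocytes minus LN CD103+), -0.12 to 0.57 (splenic CD8+ minus LN CD11b+) and -0.63 to 0.58 (splenic CD4+ minus LN CD103+).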
